A study of Mus musculus with 12 samples.

Results

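The transcripts of Langerhans cells and dendritic cells were followed in mouse skin wounds treated with CAP (capsaicin) or with the carrier gel alone. The genes were Cd207, Epcam, Itgax, Flt3, Xcr1, Clec9a, Siglech, Ccr7, Ly75 and Cd209a. They were taken by their gene names, and not by their values, from tables of 55487 genes, and all 10 were found once each. The wounds were 6 mm full-thickness punch wounds on the back of 6-week-old male C57BL/6JNarl mice. The sham group received 200 µl of 25% Pluronic F127 (P-F127) gel a day, and CAP-treated wounds received the same gel with 10 µM CAP. Wounds and the tissue around them were collected at day 3 and at day 6, and each of the 4 groups (sham or CAP, day 3 or day 6) had 3 libraries. Each mouse carried 2 wounds, and the sources used here do not say whether libraries shared a mouse. Thus n is a number of libraries, and the p-values measure only the spread between these libraries, which may in part be technical.

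Dendritic cells take up antigen in tissues, carry it through lymphatic vessels to the draining lymph node and present it to T cells. Langerhans cells are the resident antigen-presenting cells of the epidermis. They make langerin, the C-type lectin encoded by Cd207, and also express Epcam. Conventional type 1 dendritic cells are marked by the chemokine receptor Xcr1 and the dead-cell receptor Clec9a, conventional type 2 cells of the dermis often carry Cd209a, and plasmacytoid dendritic cells carry Siglech. Flt3 is the growth factor receptor of the lineage, Itgax encodes the CD11c integrin chain, Ccr7 is the receptor that guides migration to the node, and Ly75 encodes the uptake receptor DEC-205. None of Epcam, Itgax and Ly75 is private to these cells, since epithelial cells and other leukocytes can express them. Whether the other genes, Cd207, Ccr7 and Flt3 among them, also came from other cells here was not tested.

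The values were TPM, a scale on which the transcripts of a library share a fixed total after correction for length, so that levels of different genes can be set side by side. TPM do not show how deeply a library was sequenced, so the depth is unknown and counting error could not be given. Each library held 18533 to 19325 genes at 0.3 TPM or more. The keratinocyte genes that define skin were present, as 10 of 10 listed markers were above 0 and summed to 27010 to 94580 TPM per library. The highest sum belonged to replicate 2 of the CAP group at day 6, where the 10 most abundant genes also took 14.1% of the TPM against 8.27% as the lowest share in any library. In tissue RNA of this kind, fewer cells of a type and less RNA per cell cannot be told apart.

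The promoters of 9 of the 10 genes were matched in the RefSeq table on GRCm38.p6, each as the 250 bases before and the 50 bases from the transcription start. Ccr7 was not matched. The letters GAGGAA, the core bound by PU.1, a factor of the myeloid lineages, were searched on both strands. GAGGAA stood in 2 of the 9 promoters, those of Cd207 and Siglech, and in 28.3% of all 32851 promoters of the table. A match is a description of the letters and not of a bound site. The sequences below run 5′ to 3′ on the strand of the gene and are those of the langerin gene, of the plasmacytoid gene that shares its GAGGAA match, of Ly75, the gene past the threshold between the days, and of Cd209a, the gene with the smallest p-value at day 3. Capitals mark GAGGAA read on the opposite strand, which begins at position -118 from the start in Cd207 and at -4 in Siglech.
Cd207, chr6:83677808-83678107, minus strand: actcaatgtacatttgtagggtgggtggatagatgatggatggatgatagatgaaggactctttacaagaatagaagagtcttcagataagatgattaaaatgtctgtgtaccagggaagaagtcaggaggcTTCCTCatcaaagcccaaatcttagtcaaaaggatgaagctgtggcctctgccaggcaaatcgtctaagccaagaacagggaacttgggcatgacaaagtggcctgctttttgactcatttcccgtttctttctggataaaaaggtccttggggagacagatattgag
Siglech, chr7:55767934-55768233, plus strand: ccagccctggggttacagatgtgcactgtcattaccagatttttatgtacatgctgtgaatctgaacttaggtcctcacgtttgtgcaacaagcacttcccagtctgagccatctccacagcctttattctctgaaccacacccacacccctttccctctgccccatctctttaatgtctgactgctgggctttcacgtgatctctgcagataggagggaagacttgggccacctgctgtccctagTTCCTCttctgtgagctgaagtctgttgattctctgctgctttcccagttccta
Ly75, chr2:60383224-60383523, minus strand: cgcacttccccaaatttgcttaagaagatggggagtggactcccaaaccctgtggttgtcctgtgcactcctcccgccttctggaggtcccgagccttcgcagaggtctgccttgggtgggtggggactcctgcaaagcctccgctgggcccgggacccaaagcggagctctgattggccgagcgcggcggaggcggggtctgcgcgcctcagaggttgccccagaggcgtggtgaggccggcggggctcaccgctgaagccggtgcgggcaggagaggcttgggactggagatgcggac
Cd209a, chr8:3748935-3749234, minus strand: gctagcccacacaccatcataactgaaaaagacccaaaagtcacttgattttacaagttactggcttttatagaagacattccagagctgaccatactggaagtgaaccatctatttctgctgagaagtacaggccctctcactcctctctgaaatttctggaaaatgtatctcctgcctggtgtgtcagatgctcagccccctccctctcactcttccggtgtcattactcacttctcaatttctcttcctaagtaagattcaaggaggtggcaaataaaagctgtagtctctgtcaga

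The genes spanned more than 2 orders of magnitude in level. Epcam was the most abundant, with a mean of 111.8 TPM over the 12 libraries and a range of 71.7 to 198 TPM. Cd207 followed at 19.1 TPM (10.4 to 31.7 TPM). Its range did not overlap that of Epcam but did overlap those of the next genes, Itgax at 10.4 TPM (6.26 to 16.5 TPM) and Cd209a at 9.13 TPM (3.61 to 18.0 TPM). The means of Itgax and Cd209a were closer to each other than the spread of either. Ccr7 at 3.87 TPM (1.34 to 5.67 TPM), Flt3 at 2.90 TPM (1.81 to 3.95 TPM) and Ly75 at 2.70 TPM (1.32 to 4.62 TPM) formed a lower set with overlapping ranges. The markers of plasmacytoid and type 1 cells were the lowest. Siglech had a mean of 0.749 TPM (0.283 to 1.28 TPM), Clec9a of 0.545 TPM (0.317 to 1.06 TPM) and Xcr1 of 0.217 TPM (0.102 to 0.302 TPM). None of the 10 genes was at 0 in any library.

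**Figure D1:**
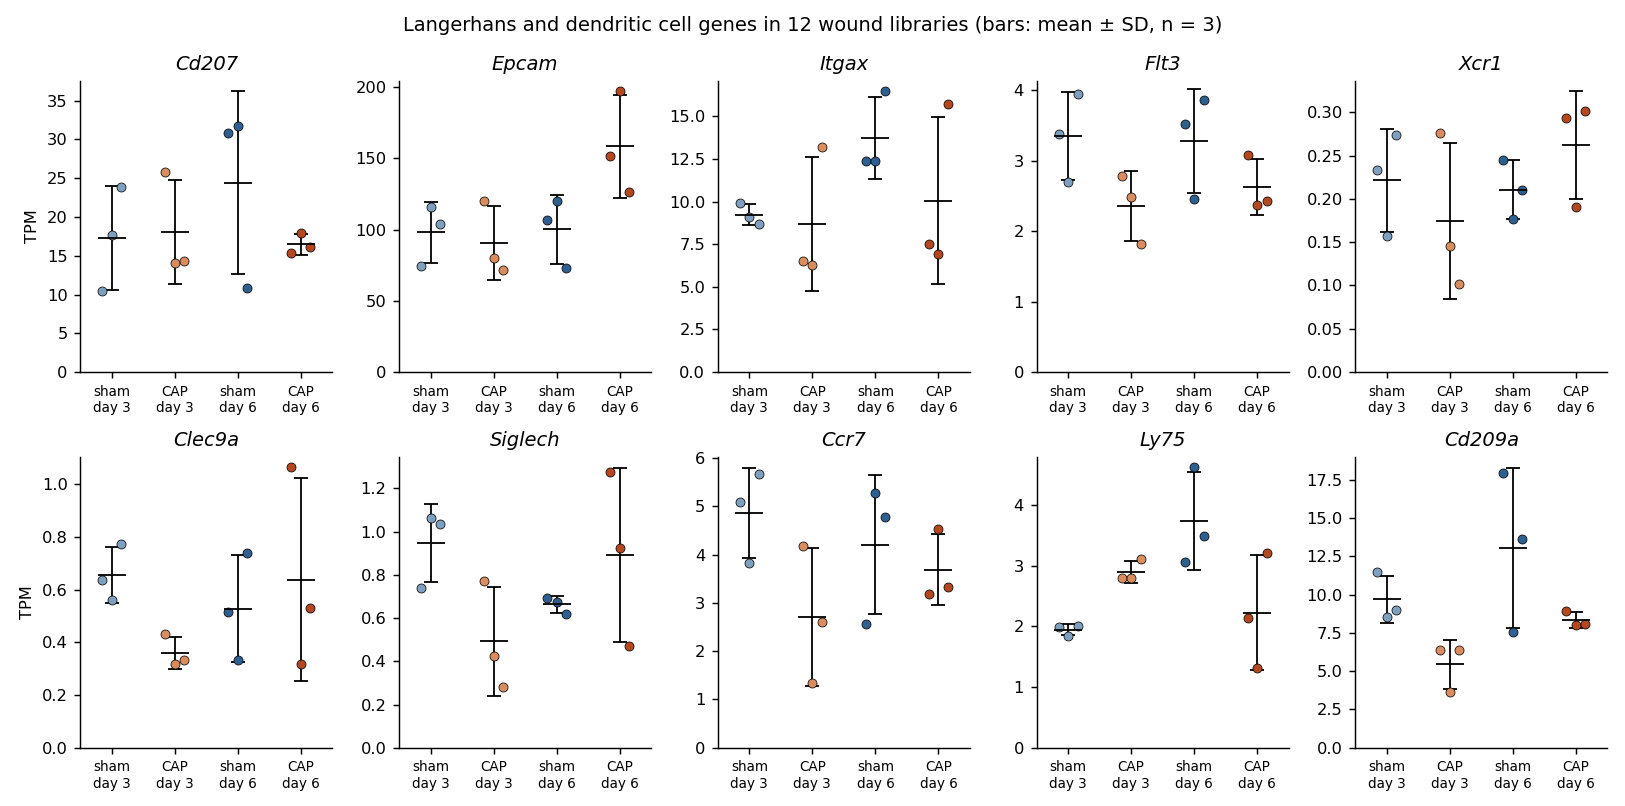
TPM of each of the 10 genes (y axis, starting at 0) in the 4 groups (x axis). Points are the 3 libraries of a group, from replicate 1 on the left to replicate 3 on the right, and bars give the mean ± SD. In Ly75 the sham libraries lie below the CAP libraries at day 3, while at day 6 only 1 CAP library, at 3.21 TPM, reaches the sham range. In Epcam the 3 CAP libraries at day 6, at 126.5 to 198 TPM, stand above the other 9 libraries.

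Differences were tested with limma on log2(TPM + 0.1), a scale on which the change of genes near 0.1 TPM is understated. To pass the threshold, a gene needed both a 2-fold or larger difference and a p below 0.05 before adjustment. Counts of genes with an unadjusted p under 0.05 alone are given without the share over all genes. They therefore do not show whether these genes exceed the background. Xcr1 was under the filter of 0.3 TPM and was not tested, which left 9 of the 10 genes in each comparison. In the 4 comparisons of a pair of groups the filter asked for 0.3 TPM in each group, so no gene entered through 1 group alone.

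At day 3, 0 of the 9 genes tested were past the threshold between CAP-treated wounds and the sham group in limma, and 2 of 9 had an unadjusted p under 0.05. Over all 18330 genes tested, 1.16% were past the threshold as lower and 0.426% as higher in CAP-treated wounds. Of the 9 differences 7 were negative, with a median of -0.49 against -0.05 over all genes tested. The share of negative differences over all genes is not given. This count and such counts for the lists below therefore do not show an excess. The libraries of the groups did not overlap in 2 genes that were lower (Cd209a and Clec9a, 22.2% of the 9) and in 1 that was higher (Ly75, 11.1% of the 9). Over all genes tested, 8.75% were lower and 2.86% higher without overlap.

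Cd209a, a C-type lectin of monocyte-derived and type 2 dendritic cells (chr8:3743397-3748984, minus strand, GRCm38), had 11.5, 8.56 and 9.03 TPM in the sham libraries and 6.37, 3.61 and 6.37 TPM in the CAP libraries at day 3. All CAP libraries lay below all sham libraries. The mean ± SD was 9.69 ± 1.56 TPM in the sham group and 5.45 ± 1.59 TPM in CAP-treated wounds (n = 3 each). The log2 difference was -0.85 (SE 0.25, 95% interval -1.45 to -0.26), with an unadjusted p of 0.0120 and an adjusted p of 0.608 in limma. The exact permutation test, 2-sided, gave p = 0.1, the smallest that 3 libraries against 3 can give.

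Clec9a, the receptor by which type 1 dendritic cells bind actin exposed on dead cells (chr6:129408862-129424763, plus strand), had 0.637, 0.561 and 0.771 TPM in the sham libraries and 0.431, 0.317 and 0.333 TPM in the CAP libraries. The groups did not overlap, and the log2 difference was -0.72 (SE 0.33, adjusted p = 0.790). Its exons overlap those of Clec1b on the same strand, with which 4.63% of its 31-base stretches are shared, so reads could be split between them. Clec1b itself had 0.219 ± 0.208 TPM in the sham group and 0.525 ± 0.251 TPM in CAP-treated wounds at day 3 (n = 3 each). Xcr1, the other type 1 gene (chr9:123852315-123862029, minus strand), had 0.234, 0.157 and 0.274 TPM in the sham libraries and 0.276, 0.145 and 0.102 TPM in the CAP libraries, which overlap.

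Ccr7 and Siglech were each lower in 2 of the 3 CAP libraries at day 3 and within the sham range in the other one, replicate 1. Ccr7 (chr11:99144196-99155077, minus strand) had 5.09, 3.83 and 5.67 TPM in the sham libraries and 4.19, 1.34 and 2.60 TPM in the CAP libraries, a log2 difference of -0.94 (SE 0.40, adjusted p = 0.756). Siglech, a sialic acid-binding lectin (chr7:55768178-55778925, plus strand), had 0.742, 1.06 and 1.04 TPM in the sham libraries and 0.771, 0.424 and 0.283 TPM in the CAP libraries, a log2 difference of -0.89 (SE 0.40, adjusted p = 0.783). The call on both genes turned on that 1 library. Without replicate 1 of the CAP group the log2 difference was -1.31 for Ccr7 and -1.21 for Siglech, and both were past the threshold.

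Ly75 (chr2:60292103-60383303, minus strand) ran the other way. It had 1.99, 1.84 and 2.002 TPM in the sham libraries and 2.79, 2.79 and 3.10 TPM in the CAP libraries at day 3. The groups did not overlap, and the spread within each was small, with 1.94 ± 0.0933 TPM in the sham group and 2.90 ± 0.178 TPM in CAP-treated wounds (n = 3 each). The log2 difference was 0.55 (SE 0.17, 95% interval 0.15 to 0.95), with an unadjusted p of 0.0142 and an adjusted p of 0.635. An antisense gene, Gm13571, overlaps an exon of Ly75, and the sources used here do not say whether reads were counted by strand. Gm13571 had at most 0.392 TPM in any library.

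The remaining genes moved less at day 3. Flt3 (chr5:147330741-147400489, minus strand) had 2.70 to 3.95 TPM in the sham group and 1.81 to 2.79 TPM in CAP-treated wounds, a log2 difference of -0.49 (95% interval -1.05 to 0.07). Cd207 (chr6:83671215-83677857, minus strand) had 10.4, 17.6 and 23.8 TPM in the sham libraries and 25.8, 14.1 and 14.3 TPM in the CAP libraries. The langerin groups overlapped, and the log2 difference of 0.08 had a 95% interval of -0.76 to 0.92, so changes of up to that size in either direction could not be told from no change. Epcam differed by -0.13 (interval -0.69 to 0.43) and Itgax by -0.18 (interval -0.86 to 0.50) on the log2 scale.

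**Figure D2:**
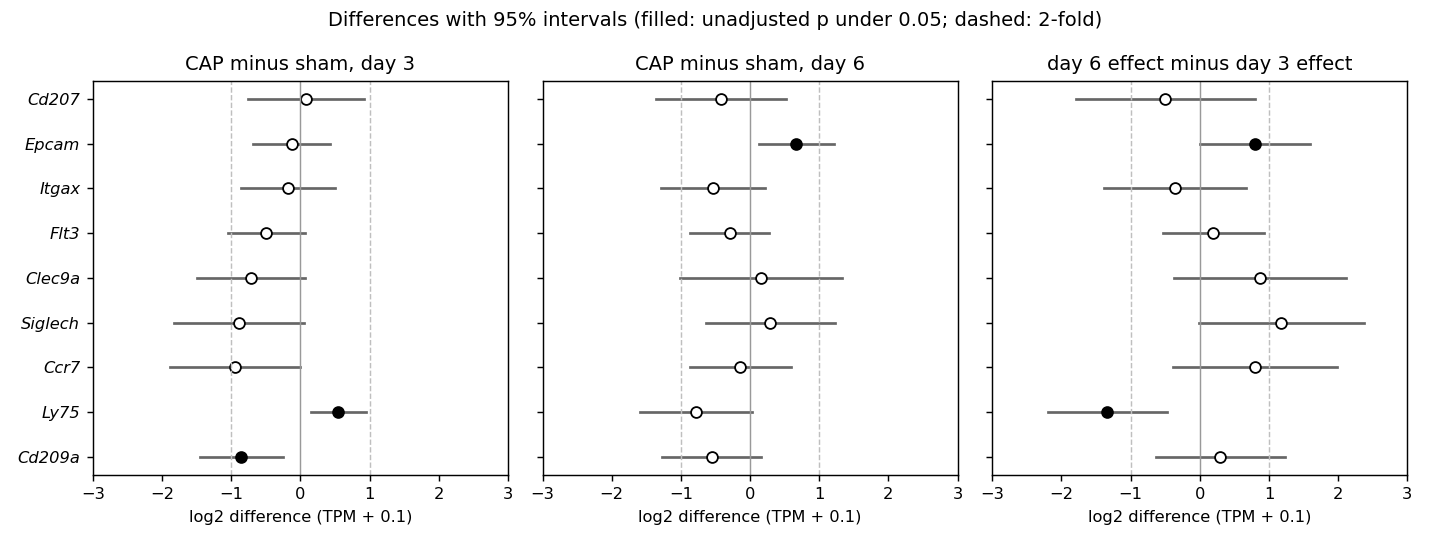
Log2 differences in TPM + 0.1 (x axis) of the 9 genes tested (y axis) between CAP-treated wounds and the sham group at day 3 and day 6, and the day 6 difference minus the day 3 difference. Lines are 95% intervals, filled points have an unadjusted p under 0.05, and dashed lines mark 2-fold. Ly75 moves from 0.55 at day 3 to -0.78 at day 6, and Epcam from -0.13 to 0.67.

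Genes outside the 10 that are used as markers of these cells, though not of these cells alone, were counted by lists. Ly6d of the plasmacytoid list, named for its level, had a mean of 1272 TPM over the 12 libraries, against 0.749 TPM for Siglech. By the same measure Klf4 and Sirpa of the type 2 list had 457.8 and 295.5 TPM, and Cd24a of the lineage list 316.5 TPM. Which cells the list genes came from was not tested. Of the plasmacytoid list, 1 of the 7 genes tested fell at day 3 and 0 rose. It was Bst2, which encodes the interferon-inducible surface protein tetherin and is not limited to these cells, at 163, 156 and 150 TPM in the sham libraries and 83.3, 41.0 and 61.7 TPM in the CAP libraries (log2 difference -1.39, SE 0.24, adjusted p = 0.500). Of the type 1 list, 0 of 7 passed in limma, with 1 of 7 at an unadjusted p under 0.05. Of the type 2 list 0 of 8, of the lineage and Langerhans list 0 of 7, and of the list of activated and migrating cells 0 of 10 passed, and 0, 2 and 2 of them had an unadjusted p under 0.05. Cd40 of the activated list, named because the paper lists it as downregulated, was not past the threshold here. It had 15.7, 7.88 and 11.4 TPM in the sham libraries and 5.69, 5.55 and 5.60 TPM in the CAP libraries. These do not overlap, as was so for 8.75% of all genes tested that were lower. The median differences were -0.30 in the plasmacytoid list, -0.08 in the type 1 list, -0.25 in the type 2 list, -0.37 in the lineage list and -0.28 in the activated list. Over all genes tested the median was -0.05.

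The list of the Cd209 family with other C-type lectins had the lowest median of the lists at day 3. Of its 9 genes tested 8 had a negative difference, with a median of -1.07, and 1 of 9 passed the threshold. That gene, Cd209f, had 8.90, 8.64 and 8.80 TPM in the sham libraries and 5.23, 0 (listed as 0.0001) and 1.38 TPM in the CAP libraries (log2 difference -3.26, SE 1.30, adjusted p = 0.734). It shares 36.3% of its 31-base stretches with Cd209g, so the level of either is uncertain. The genes Cd209b and Cd209d, named here after their values were seen, were also listed at 0 in replicate 2 of the CAP group at day 3. The summed level of Cd209a to Cd209g was 36.8, 37.0 and 32.1 TPM in the sham libraries and 28.0, 4.37 and 11.4 TPM in the CAP libraries. All CAP sums lay below all sham sums at day 3, and the 3 CAP libraries differed among themselves more than the groups did. At day 6 the sums overlapped, with 63.7, 22.3 and 40.1 TPM in the sham group and 56.8, 40.2 and 21.7 TPM in CAP-treated wounds. Cd209a shared no 31-base stretch with another gene. Whether the transcripts of this family came from dendritic cells, macrophages or other cells was not tested.

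**Figure D3:**
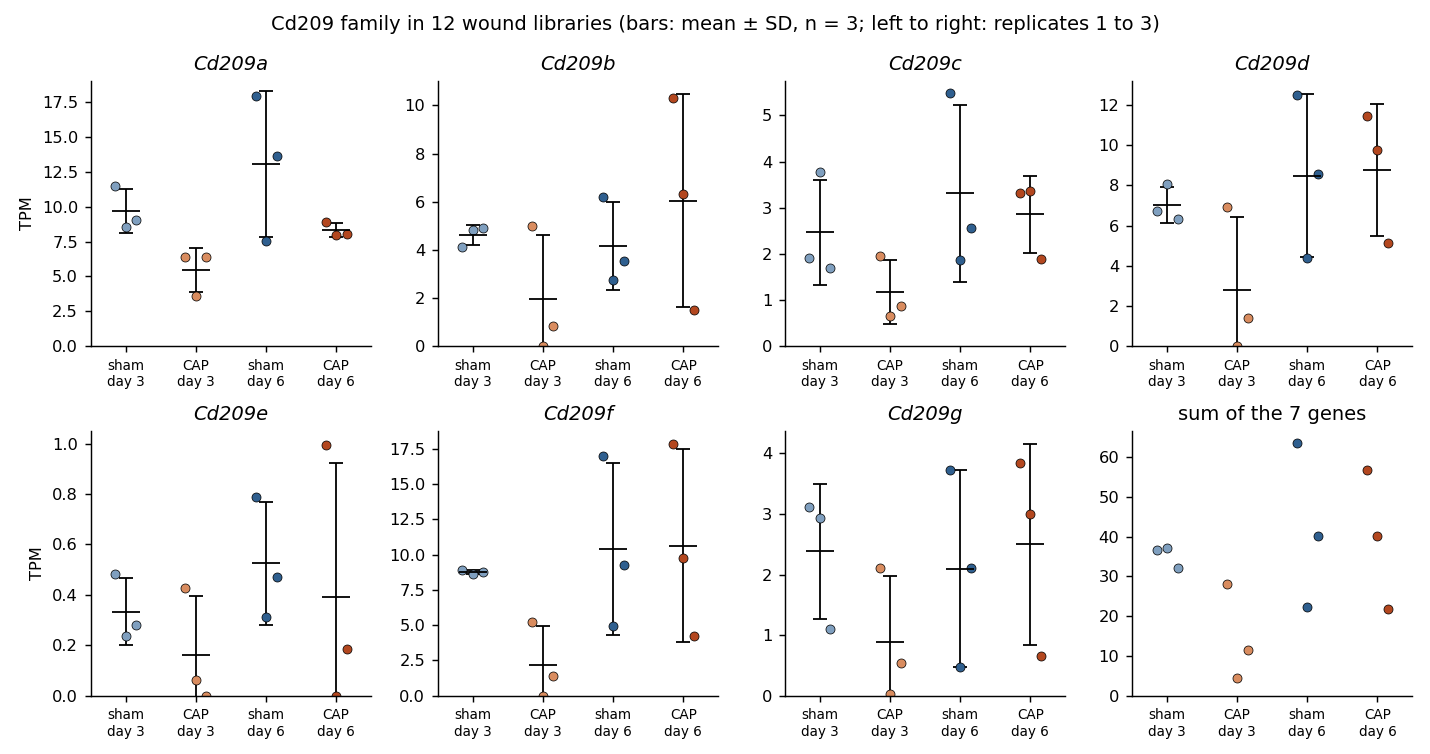
TPM of Cd209a to Cd209g and their sum (y axes, starting at 0) in the 4 groups (x axis). Points are libraries, replicate 1 to 3 from left to right, and bars are the mean ± SD of 3 libraries. The sums of the CAP group at day 3, from 4.37 to 28.0 TPM, lie below those of the sham group at day 3, from 32.1 to 37.0 TPM, and the groups of day 6 overlap.

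The growth factors and ligands of these cells gave no gene past the threshold at day 3, with 0 of 15 rows tested in limma and 1 of 15 at an unadjusted p under 0.05. Flt3l, the ligand of Flt3, had 27.2, 18.0 and 22.1 TPM in the sham libraries and 18.9, 12.2 and 15.5 TPM in the CAP libraries, a log2 difference of -0.53 (SE 0.21, adjusted p = 0.732). Il34, the keratinocyte cytokine on which Langerhans cells depend, had a log2 difference of 0.17 (95% interval -0.26 to 0.59). Xcl1, the ligand of Xcr1, had 0.09 (95% interval -0.80 to 0.98).

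Markers of other cells also moved at day 3. Of 12 monocyte and macrophage genes 3 fell (Ly6c2, Ccr2 and Cx3cr1), and their summed level was 4723 to 6610 TPM in the sham group and 5233 to 10700 TPM in CAP-treated wounds. Lyz2 held the largest part of this sum, and without it the sums were 2083 to 2656 TPM and 1892 to 3127 TPM. Of 11 T and NK cell genes tested 3 fell (Cd2, Ncr1 and Trac), with sums of 40.1 to 49.9 TPM and 32.3 to 42.9 TPM. All 5 erythroid genes tested rose, with sums of 514 to 753 TPM in the sham group and 2357 to 2803 TPM in CAP-treated wounds. None of the 6 fibroblast genes passed, but their sums were 14770 to 23020 TPM and 10380 to 15590 TPM. The part of these cells in the differences above was not tested.

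At day 6, 0 of the 9 genes passed the threshold in limma, and 1 of 9 had an unadjusted p under 0.05. Over all 18323 genes tested, 2.34% were past it as lower and 1.46% as higher in CAP-treated wounds. The median difference of the 9 genes was -0.29 and that of all genes tested -0.12. Median-ratio scaling moved the median of all genes by 0.109 on the log2 scale and the share of calls that were lower from 61.5% to 42.9%, so differences at day 6 are best read against that shift. Of the 9 genes, 1 was higher in CAP-treated wounds without overlap (Epcam, 11.1%) and 0 were lower, against 8.01% and 18.0% of all genes tested.

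Epcam, the adhesion molecule shared by Langerhans cells and epithelial cells (chr17:87635979-87651129, plus strand), had 107, 120 and 73.3 TPM in the sham libraries and 152, 198 and 126.5 TPM in the CAP libraries at day 6. All CAP libraries lay above all sham libraries. The mean ± SD was 100.1 ± 24.1 TPM in the sham group and 159 ± 36.1 TPM in CAP-treated wounds (n = 3 each). The log2 difference was 0.67 (SE 0.23, 95% interval 0.13 to 1.21), with an unadjusted p of 0.0226 and an adjusted p of 0.227. It was 0.78 with median-ratio scaling. Without replicate 3 of the sham group it was 0.46, and without replicate 2 of the CAP group 0.50.

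The keratinocyte genes were also higher in sum in CAP-treated wounds at day 6. Their summed level was 28080 to 31890 TPM in the sham group at day 6 and 45750 to 94580 TPM in CAP-treated wounds. Of the 10 genes 3 rose, namely Krt10 (log2 difference 1.62), Krt1 (1.86) and Krt15 (1.21), and none fell. The library with the highest keratinocyte sum was also that with the highest Epcam level. In it, Krt1 and Krt10 held most of the sum, at 29720 and 40800 of 94580 TPM. Krt14 overlapped between the groups, at 7369 to 8684 TPM in the sham group and 6740 to 15760 TPM in CAP-treated wounds. At day 6, 8 of the 10 genes had a positive difference and 2 a negative one. Between the days in the sham group, 9 of the 10 had a negative difference, with a median of -0.39, while Epcam differed by 0.02. Cd207, the langerin gene, had 30.8, 31.7 and 10.8 TPM in the sham libraries and 15.3, 18.0 and 16.2 TPM in the CAP libraries at day 6. The log2 difference was -0.42 (95% interval -1.36 to 0.53), so a change in either direction could not be told from no change. The part of the keratinocytes in the Epcam difference was not tested.

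Ly75 had 3.06, 4.62 and 3.49 TPM in the sham libraries and 2.14, 1.32 and 3.21 TPM in the CAP libraries at day 6. Replicates 1 and 2 of the CAP group lay below all sham libraries, and replicate 3 lay within the sham range. The log2 difference was -0.78 (SE 0.34, 95% interval -1.59 to 0.03), with an unadjusted p of 0.0561 and an adjusted p of 0.269. Without replicate 3 of the CAP group it was -1.08 and past the threshold. The order at day 6 was the opposite of that at day 3.

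Itgax (chr7:128129547-128150657, plus strand) had 12.35, 12.35 and 16.5 TPM in the sham libraries and 7.51, 6.93 and 15.7 TPM in the CAP libraries at day 6. Here too replicates 1 and 2 of the CAP group were below the sham range and replicate 3 was within it, and the log2 difference was -0.53 (95% interval -1.29 to 0.22). The summed monocyte and macrophage genes ordered the libraries in a like way, at 8941, 7710 and 11200 TPM in the sham group and 5610, 4584 and 10090 TPM in CAP-treated wounds, and 2 of the 12, Itgam and Ccr2, fell. Without Lyz2 the sums were 2831, 2354 and 3148 TPM in the sham group and 1960, 1294 and 2561 TPM in CAP-treated wounds. Itgax shares 10.7% of its 31-base stretches with Itgad, which had at most 0.141 TPM in any library. How reads were divided between them was not tested.

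**Figure D4:**
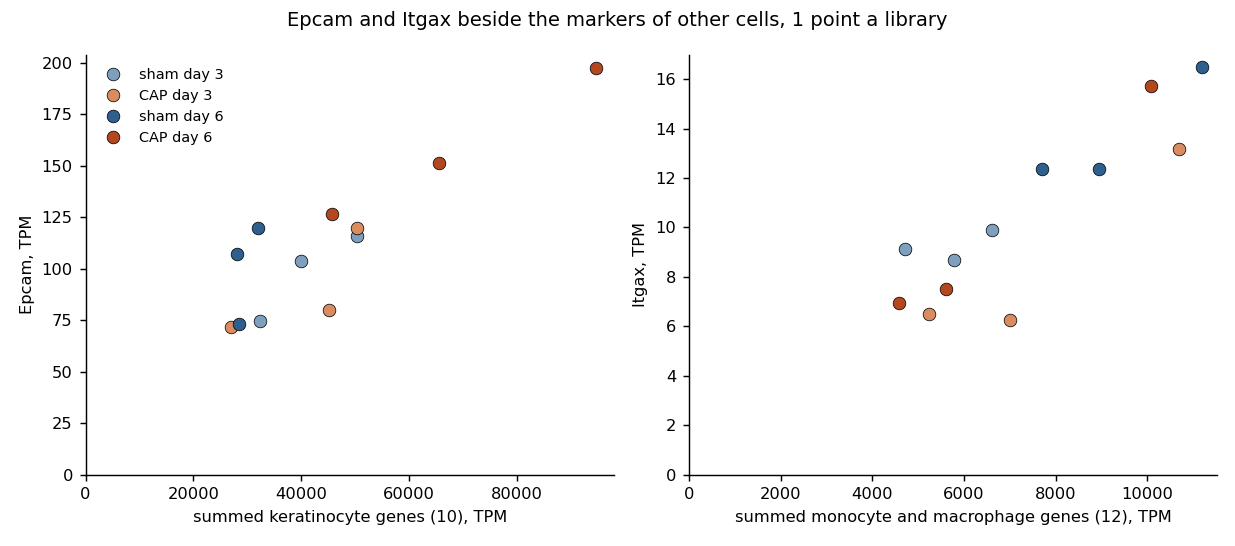
Left, Epcam against the summed TPM of 10 keratinocyte genes; right, Itgax against the summed TPM of 12 monocyte and macrophage genes (all axes in TPM, starting at 0, 1 point per library, coloured by group). The CAP libraries at day 6 hold the 3 highest Epcam levels at keratinocyte sums of 45750 to 94580 TPM, and replicate 3 of each of the CAP groups sits apart from its group in both Itgax and the macrophage sum.

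Cd209a had 18.0, 7.54 and 13.6 TPM in the sham libraries and 8.93, 8.004 and 8.07 TPM in the CAP libraries at day 6. The CAP libraries were close together and lay between the lowest sham library and the other two, with a log2 difference of -0.55 (95% interval -1.27 to 0.16). Flt3 differed by -0.29 (interval -0.86 to 0.28) and Ccr7 by -0.14 (interval -0.87 to 0.59). The plasmacytoid and type 1 genes were as wide apart within the CAP group as between groups: Siglech had 0.473 to 1.28 TPM in CAP-treated wounds and 0.619 to 0.695 TPM in the sham group, and Clec9a 0.317 to 1.06 TPM and 0.331 to 0.737 TPM. Xcr1 had 0.190 to 0.302 TPM in CAP-treated wounds and 0.177 to 0.245 TPM in the sham group.

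Among the lists at day 6, that of ligands and growth factors had 2 of 13 rows past the threshold, both lower. Csf2rb, the shared receptor chain for GM-CSF, had 99.7, 113 and 88.7 TPM in the sham libraries and 45.4, 29.1 and 91.2 TPM in the CAP libraries (log2 difference -1.01, SE 0.38, adjusted p = 0.235). Ccl21a, which encodes a ligand of Ccr7, is listed under 2 identifiers, and 1 of the 2 (ENSMUSG00000094686) fell, from 3.89, 4.92 and 8.36 TPM to 2.38, 1.80 and 3.63 TPM (log2 difference -1.09, SE 0.36, adjusted p = 0.220). The other (ENSMUSG00000095320) differed by -0.32 (95% interval -0.99 to 0.34). Copies of this gene are nearly identical, so how reads were divided between them is uncertain. Of the 6 lymphatic and blood endothelial genes 2 fell beside it (Pecam1 and Cdh5), with sums of 199 to 270 TPM in the sham group and 50.4 to 168 TPM in CAP-treated wounds, and their part in the Ccl21a difference was not tested. In the type 1 list 0 of 8, type 2 list 0 of 8, lineage list 0 of 7, plasmacytoid list 0 of 7, activated list 0 of 11 and Cd209 and lectin list 0 of 10 genes passed in limma, with 0, 2, 3, 3, 6 and 2 at an unadjusted p under 0.05. The activated list had the lowest median of these, -0.57, with 9 of its 11 genes negative.

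The change of each gene from day 3 to day 6 was compared within each treatment. These comparisons share their libraries with those above and are not independent of them. In the sham group 0 of 9 genes passed the threshold in limma, with 2 of 9 at an unadjusted p under 0.05, against 2.13% of all genes past it as higher and 1.61% as lower at day 6. Itgax and Ly75 were higher at day 6 without overlap (22.2% of the 9, against 10.8% of all genes) and Siglech was lower (11.1%, against 10.6%). Ly75 went from 1.94 ± 0.0933 to 3.73 ± 0.807 TPM (n = 3 each), a log2 difference of 0.88 (SE 0.21, 95% interval 0.40 to 1.37) with an unadjusted p of 0.00336 and an adjusted p of 0.0819. Without replicate 1 of the sham group at day 6 it was 1.01 and past the threshold. Itgax went from 9.23 ± 0.629 to 13.7 ± 2.38 TPM (n = 3 each), a log2 difference of 0.56 (SE 0.15, adjusted p = 0.115). The monocyte and macrophage sums were 4723 to 6610 TPM at day 3 and 7710 to 11200 TPM at day 6, but without Lyz2 they overlapped, at 2083 to 2656 TPM and 2354 to 3148 TPM. Of the 12 genes 4 had a negative difference, and the one past the threshold, Ly6c2, a marker of inflammatory monocytes, fell from 73.6 ± 17.4 to 16.6 ± 2.47 TPM (n = 3 each).

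In the lists, 6 rows were past the threshold between the days in the sham group. Batf3, the transcription factor of type 1 dendritic cells, fell from 7.51, 5.85 and 6.33 TPM to 3.87, 3.00 and 2.84 TPM (log2 difference -1.003, SE 0.18, adjusted p = 0.0417), 1 of the 8 type 1 genes tested. In CAP-treated wounds it had 3.81, 3.09 and 4.21 TPM at day 3 and 3.36, 2.34 and 2.13 TPM at day 6. Batf3 was not past the threshold for CAP against sham at day 3, nor for the difference of the CAP effect between days. Bst2 fell in the sham group (log2 difference -1.09, adjusted p = 0.00985), 1 of 8 plasmacytoid genes. Cd83, a maturation marker of dendritic cells, rose from 6.05, 9.22 and 6.89 TPM to 14.5, 13.8 and 16.9 TPM (log2 difference 1.03, SE 0.18, adjusted p = 0.0362), 1 of 11 activated genes. These adjusted p-values depend on the libraries and the fit. Over 12 alternatives they ranged from 0.0357 to 0.139 for Batf3, from 0.00744 to 0.118 for Bst2 and from 0.0340 to 0.314 for Cd83, and they were under 0.05 in 4, 10 and 4 of them. Over all genes, 420 had an adjusted p under 0.05. The number was 498, 83 and 1 without replicate 1, 2 or 3 of the sham group at day 3. Without replicate 1, 2 or 3 of the sham group at day 6 it was 212, 275 and 89. It was 458 with a pseudocount of 1 TPM, 470 with a filter on the overall mean and 454 with median-ratio scaling. With the replicate block it was 363 and with no expression filter 114. In the joint fit of 12 libraries it was 0, while 622 genes were still past the threshold. Bst2 stayed past the threshold in 12 of 12 alternatives and Batf3 and Cd83 in 8 each. Both identifiers of Ccl21a rose (1.28 and 1.47), as did 1 of Ccl21b, 3 of the 15 ligand and growth factor rows. Of the lymphatic and blood endothelial genes 3 of 6 rose beside them (Flt4, Pecam1 and Cdh5), with sums of 70.3 to 111.5 TPM at day 3 and 199 to 270 TPM at day 6. The part of the vessels in the Ccl21a difference was not tested. Of the type 2 list 0 of 8, of the lineage list 0 of 7 and of the Cd209 and lectin list 0 of 10 genes passed in limma, and 3, 4 and 1 of them had an unadjusted p under 0.05.

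In CAP-treated wounds 0 of 9 genes passed between the days in limma, with 2 of 9 at an unadjusted p under 0.05, against 1.27% of all genes past it as higher and 1.52% as lower. Epcam and Cd209a were higher at day 6 without overlap (22.2% of the 9, against 8.05% of all genes), and 0 were lower (against 9.63%). Epcam went from 90.5 ± 25.8 to 159 ± 36.1 TPM (n = 3 each), a log2 difference of 0.82 (SE 0.24, adjusted p = 0.339), and without replicate 1 of the CAP group at day 3 it was 1.04 and past the threshold. Cd209a went from 5.45 ± 1.59 to 8.34 ± 0.520 TPM (n = 3 each), a log2 difference of 0.65 (SE 0.24, adjusted p = 0.392). Of the Cd209 and lectin list 1 of 9 genes rose, Cd209c (log2 difference 1.32, SE 0.44, adjusted p = 0.357), and its groups overlapped. Of the type 1 list 0 of 7, the type 2 list 0 of 8, the lineage list 0 of 7, the plasmacytoid list 0 of 7, the activated list 0 of 10 and the ligand list 0 of 13 passed in limma, while 2, 1, 2, 0, 1 and 1 of them had an unadjusted p under 0.05.

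Markers of other cells moved between the days in CAP-treated wounds as well. Of the 10 keratinocyte genes 3 rose (Krt10, Krt1 and Krt15) and 1 fell (Krt17), with sums of 27010 to 50310 TPM at day 3 and 45750 to 94580 TPM at day 6. Of the 11 T and NK cell genes tested 4 rose (Nkg7, Cd4, Ncr1 and Trac) and 11 had a positive difference, with sums of 32.3 to 42.9 TPM and 76.0 to 98.2 TPM. Of the 6 neutrophil genes tested 3 fell (Mmp8, Retnlg and S100a8), with sums of 1889 to 4876 TPM and 281 to 2675 TPM. Of the 12 monocyte and macrophage genes 2 fell (Fcgr1 and Itgam) and 1 rose (Cx3cr1), with sums of 5233 to 10700 TPM and 4584 to 10090 TPM. The part of these cells in the differences of Epcam and Cd209a was not tested.

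Whether the CAP effect differed between the days was tested directly over all 12 libraries. Of the 9 genes tested 1, Ly75, was past the threshold, against 2.73% of all 20267 genes as more negative at day 6 and 2.18% as more positive. The CAP effect on Ly75 was lower at day 6 than at day 3 by 1.34 on the log2 scale (-1.34, SE 0.39, 95% interval -2.19 to -0.48), with an unadjusted p of 0.00569 and an adjusted p of 0.428. The 4 groups stood in the order sham at day 3 (1.94 TPM), CAP at day 6 (2.22 TPM), CAP at day 3 (2.90 TPM) and sham at day 6 (3.73 TPM). The sham group at day 3 and the CAP group at day 3 did not overlap, and neither did the 2 sham groups. CAP at day 3 overlapped sham at day 6, its neighbour in the order, and CAP at day 6, with an SD of 0.948 TPM, overlapped all 3 others. With 1 of the 12 libraries left out in turn, the difference stayed past the threshold and lay between -1.63 and -1.02. With a pseudocount of 1 TPM it was -0.99, just under 2-fold.

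Markers of other cells differed in the same test. Of the 6 erythroid genes 5 were more negative at day 6, as were 2 of 8 neutrophil genes (Mmp8 and Retnlg), 1 of 6 endothelial genes (Flt4), and Itgam and Lyz2 among the 12 monocyte and macrophage genes. Of the 10 keratinocyte genes 3 were more positive (Krt10, Krt1 and Krt15), as were 4 of 11 T and NK cell genes (Nkg7, Cd2, Ncr1 and Trac) and Ly6c2. Erythroid sums were 514 to 753 TPM in the sham group and 2357 to 2803 TPM in CAP-treated wounds at day 3, against 2114 to 5622 TPM and 716 to 3184 TPM at day 6. The part of these cells in the differences of Ly75 and of the list genes was not tested.

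Epcam also differed between the days, by 0.80 (SE 0.36) with an unadjusted p of 0.0490 and an adjusted p of 0.440, which is less than 2-fold. Siglech had a larger difference, 1.18 (SE 0.54, adjusted p = 0.441), and an unadjusted p of 0.0531. Clec9a had 0.87 (95% interval -0.38 to 2.12), Ccr7 0.80 (-0.39 to 1.99) and Cd209a 0.30 (-0.63 to 1.23). Cd207 had -0.50 (-1.80 to 0.80).

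In the lists, 67 rows reached 0.3 TPM in more than 1 group, and the CAP effect on 7 of them differed between the days by the same threshold, each with an adjusted p of 0.428 or 0.440. In the lineage and Langerhans list, with 2 of 7 genes past the threshold, the CAP effect on Id2, a transcription regulator required by Langerhans cells and by other lineages, was lower at day 6 (-1.73, SE 0.42). Id2 had 33.4, 28.8 and 42.5 TPM in the sham group and 37.1, 61.0 and 97.5 TPM in CAP-treated wounds at day 3, and 60.1, 69.8 and 62.6 TPM against 37.9, 25.6 and 40.1 TPM at day 6. The sign of its CAP effect thus changed between the days as that of Ly75 did, but its groups overlapped at day 3. Dpp4, which encodes the surface peptidase CD26, crossed the opposite way (1.42, SE 0.28), with 38.9, 45.1 and 45.4 TPM against 26.8, 21.0 and 31.9 TPM at day 3 and 31.8, 20.7 and 28.8 TPM against 39.6, 54.4 and 38.7 TPM at day 6. In the type 2 list, with 2 of 8, the effect on Irf4 was more positive at day 6 (1.30, SE 0.51) and that on Sirpa more negative (-1.02, SE 0.45). In the ligand and growth factor list, with 3 of 15 rows, Csf2 (-2.55), Csf2rb (-1.44) and Ccl21a (-1.38) were more negative, and Csf2 was listed at 0 in 1 library. Ccl19 entered the comparison only through its highest group, sham at day 6 (0.482 TPM), and its difference is therefore not counted. In the type 1 list 0 of 8, the plasmacytoid list 0 of 8, the activated list 0 of 12 and the Cd209 and lectin list 0 of 10 passed in limma, with 0, 2, 1 and 1 at an unadjusted p under 0.05.

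For the 7 genes whose mean reached 1 TPM, the genes with the most similar course over the 12 libraries were sought among 16169 genes by the root mean square difference of the centred log2 profiles. Libraries of the same wound type and composition enter every such profile. Epcam was closest to Pou2f3 (0.126), a transcription factor of differentiating keratinocytes, then to Tmem45a (0.130) and Egr3 (0.132). Itgax was closest to Lmo2 (0.170), Zfp189 (0.185) and Laptm5 (0.197). Ly75 was closest to Havcr2 (0.194), which encodes the receptor TIM-3 of dendritic cells, macrophages and T cells, then to Rcbtb2 (0.194) and Ager (0.203). Cd209a was closest to Etv1 (0.222), Fcgrt (0.240) and H2-Aa (0.240), the last an MHC class II chain of antigen-presenting cells. Cd207 was closest to Calcb (0.166), which encodes a calcitonin gene-related peptide and had a mean of 14.7 TPM, and its next genes, Slc1a1 (0.285) and 4930599N23Rik (0.306), were much less alike. Flt3 was closest to Hmgn2-ps1 (0.1496), Dennd5b (0.158) and Cavin2 (0.178), and Ccr7 to Tgif2 (0.280), Itga10 (0.311) and Gm16433 (0.318). For comparison, the profiles of these 7 genes varied about their own means by 0.308 for Flt3 to 0.551 for Cd209a.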

How the data were processed

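RNA from 12 wound libraries (sham group or CAP-treated wounds, day 3 or day 6, 3 libraries per group) was made into libraries with the SureSelect XT HS2 mRNA kit by the authors and read from both ends. Per the labels, bcl2fastq, Trimmomatic 0.36 and mm10 were used, and the paper names StringTie. For the aligner, the annotation and the use of strand: not given in the sources used here. The authors deposited 1 table of TPM per library for 55487 genes, with 0.0001 in place of 0 and 0 other columns of per-sample values. Loci of the 10 genes equal those of GENCODE M21 on GRCm38. TPM carry no depth, so precision rests on the spread between libraries.

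Genes averaging 0.3 TPM or more in each group compared (for the difference between days, in at least 1 of the 4 groups) were fitted on log2(TPM + 0.1) with limma 3.58.1 in R 4.3.3 (eBayes with trend), with Benjamini-Hochberg adjustment of the p-values over every gene tested, in 5 comparisons. The fit was tested on simulated data. Exact permutation tests were 2-sided. Python 3.11.15, numpy 2.4.6, pandas 2.3.3 and matplotlib 3.10.9 were used for the rest. Named genes were the 10 genes, list genes past the threshold (at most 4 per list and comparison, by p), ligands and receptors of a gene described, and the 3 most similar genes. A few other list genes were named for their level, because the paper lists them, or after their values were seen. The genes and lists were chosen with earlier results of these data known. Clec6a, an older symbol in the lectin list, was not matched. Alternatives were a pseudocount of 1 TPM, no filter, a filter on the overall mean, a joint fit of 12 libraries, the replicate number as a block, median-ratio scaling, and leaving out each library.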

Additional observations from a re-analysis of the deposited data

Results flagged for a closer look

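The CAP effect differed between day 3 and day 6 by the test of the difference itself, at an unadjusted p under 0.05, for 2 of the 9 genes tested. For Ly75 the difference was -1.34 on the log2 scale, as CAP-treated wounds had 2.90 against 1.94 TPM in the sham group at day 3 and 2.22 against 3.73 TPM at day 6. CAP libraries were higher in 3 of 3 at day 3, and 2 of 3 were below all sham libraries at day 6. For Epcam the difference was 0.80, with 90.5 against 98.1 TPM at day 3 and 159 against 100.1 TPM at day 6. Neither passed after adjustment over all genes (adjusted p of 0.428 and 0.440 in limma). The share of all genes at that unadjusted p alone is not given here, so the count of 2 of 9 does not show an excess.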

How the results depend on the processing

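Over 45 results and their alternatives, 579 of 612 values kept their direction and their side of the threshold. The 612 include, for each comparison of a pair of groups, 1 entry per gene for the exact permutation test. That entry repeats the limma difference. It was bound to count as kept, since none of these genes was past the threshold there. The numbers of genes past the threshold moved as follows. Between the days' CAP effects the number was 1, and it was 0 with a pseudocount of 1 TPM (Ly75, -0.99), 2 with median-ratio scaling (Siglech, 1.23, and Ly75) and 1 to 4 with libraries left out, the highest without replicate 1 of the CAP group at day 3 (Epcam 1.02, Siglech 1.5, Ccr7 1.17 and Ly75 -1.36). Other genes that joined Ly75 were Siglech without replicate 1 of the sham group at day 3 (1.33) or replicate 3 of the CAP group at day 6 (1.53), Clec9a without replicate 2 of the CAP group at day 6 (1.21) and Cd207 without replicate 3 of the sham group at day 6 (-1.005). With libraries left out the number was 0 to 2 for CAP against sham at day 3, 0 to 1 at day 6, 0 to 1 between days in the sham group and 0 to 1 in CAP-treated wounds, against 0 in each with all libraries. Same-numbered libraries correlated by -0.170 to 0.289 in their deviations. For CAP against sham at day 6 the same-numbered pairs were at 0.032, 0.117 and 0.111, and the other pairs were all negative. In CAP-treated wounds between days, a pair with different numbers reached 0.25. Deviations centred on groups of 3 cannot show whether same-numbered libraries shared a batch or handling, and this was not tested. With the replicate number as a block, the number between the days' effects was 2 (Siglech, 1.18, and Ly75), and no other count of these genes changed. Signs turned only with libraries left out: at day 3 for Cd207 (-0.24 to 0.35), Epcam (-0.35 to 0.021) and Itgax (-0.52 to 0.0094), at day 6 for Clec9a (-0.24 to 0.50) and Ccr7 (-0.45 to 0.052), between days in the sham group for Epcam (-0.16 to 0.23), Flt3 (-0.18 to 0.15) and Ccr7 (-0.44 to 0.064), in CAP-treated wounds for Cd207 (-0.22 to 0.21), Itgax (-0.17 to 0.54) and Flt3 (-0.0089 to 0.29), and for Cd209a between the effects (-0.050 to 0.57). None of these was past the threshold. Over all genes, the number past the threshold was 290 at day 3, 697 at day 6, 688 and 507 between days and 994 between the effects. It was 154, 385, 405, 299 and 580 with a pseudocount of 1 TPM, and without a filter 568 at day 3, 1156 in the sham group and 842 in CAP-treated wounds. With 1 library left out it was 204 to 510 at day 3 (highest without replicate 1 of the CAP group), 311 to 1483 at day 6 (lowest without replicate 2 and highest without replicate 3 of the CAP group), 382 to 886 between days in CAP-treated wounds (highest without replicate 3 at day 6) and 657 to 1777 between the effects (lowest without replicate 2 and highest without replicate 3 of the CAP group at day 6). The cause was not tested. With 3 libraries a group and unknown depth, genes under 1 TPM (Xcr1, Clec9a and Siglech) are the least certain.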
